A study of Mus musculus with 60 samples.

Results

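Dcx, Dclk1, Tubb3, Stmn1, Stmn2, Stmn3, Stmn4 and Gap43 are genes that young neurons use while they migrate and grow axons. They were taken by name as a list of 8 genes. The list made up 8 of the 39756 genes in the table of cortical cultures and 8 of the 41873 entries in the hippocampal table, and all 8 passed the filter on low values in both. The study asked how paxillin, a focal adhesion protein that also enters the neuronal nucleus, acts during neuronal maturation. Levels in culture were followed over days in vitro (DIV), with scrambled siRNA (SC) or paxillin siRNA and with or without brain-derived neurotrophic factor (BDNF). Levels in hippocampus were followed over postnatal days (P) 10, 15 and 21 in control mice and in mice whose paxillin carried the S119A change.

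The 48 culture libraries came from wild-type cortical neurons, labelled as mouse, to which the siRNA and 20 ng/ml BDNF were given at 2 DIV. The embryos were at E18 by the labels' protocol, while a legend of the study names E15 cultures. The paxillin siRNA was a pool of a pair of siRNAs. Without BDNF there were 3, 4 and 3 SC libraries and 5, 6 and 4 paxillin siRNA libraries at DIV3, DIV5 and DIV10. With BDNF there were 3, 4 and 3 SC libraries and 4, 5 and 2 paxillin siRNA libraries on the same days. A further 2 libraries came from E15, which the study counts as DIV0. The 12 hippocampal libraries held 2 of each genotype at each age. The S119A mice carried Nestin-CreERT2, a tamoxifen-dependent recombinase active in neural progenitors and the cells they give rise to, over 1 floxed and 1 S119A paxillin allele. The controls were littermates with the same alleles and no Cre by the methods, while the labels call them WT. All mice had a C57BL/6J background, and both sexes were used. Tamoxifen preceded P10, so the 3 ages also differ in the time since induction. The labels do not say that each library came from a separate culture or mouse, although legends of the study speak of independent cultures and of separate hippocampi at each age. P-values measure the spread between these libraries.

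Doublecortin (Dcx) and its relative doublecortin-like kinase 1 (Dclk1) bind along microtubules and stabilise them. Dcx marks migrating and newly differentiated neurons, and Dclk1 also gives shorter proteins that keep the kinase domain but not the microtubule-binding domains. Tubb3 encodes class III β-tubulin, the neuron-enriched subunit of which those microtubules are partly built. The stathmins act the other way: they bind free tubulin dimers and favour microtubule disassembly, with Stmn1 soluble in the cytosol and Stmn2 (SCG10), Stmn3 (SCLIP) and Stmn4 (RB3) held on membranes of the Golgi and growth cone. Gap43 is a membrane-bound phosphoprotein of the growth cone. Most of these genes are known for high levels in the embryonic brain and lower levels once axons have reached their targets.

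On GRCm38, Dcx lies at chrX:143855842-143933311 on the minus strand and Dclk1 at chr3:55242364-55539068 on the plus strand. Tubb3 lies at chr8:123411424-123422015 (plus) and Gap43 at chr16:42248442-42340651 (minus). The stathmin genes lie on 4 chromosomes, Stmn1 at chr4:134468320-134473843 (plus), Stmn2 at chr3:8509360-8561606 (plus), Stmn3 at chr2:181306459-181314500 (minus) and Stmn4 at chr14:66344296-66361680 (plus). Tubb3, Gap43, Stmn1, Stmn2 and Stmn3 were each counted as 1 RefSeq transcript in hippocampus. Dcx had reads on 7 transcripts, Stmn4 on 6 and Dclk1 on 17.

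Of the 17 Dclk1 transcripts with reads, 7 could be placed by their start and fell into 2 groups, whose reads moved differently with age in hippocampus, as described below. The other 10 could not be placed, and the annotation lists further Dclk1 starts. Transcripts from the upstream start had their first coding base at position 55247151 of chromosome 3 and those from the downstream start at position 55462064. The first transcription starts of these groups lie 219364 bases apart. The 250 bases before each, from RefSeq on GRCm38.p6 and the plus strand, are shown because they are the sequences in front of the starts of these groups. Capitals mark matches to CANNTG (the E-box) and CCAAT (the CCAAT box) on either strand.
Upstream start, chr3:55242114-55242363: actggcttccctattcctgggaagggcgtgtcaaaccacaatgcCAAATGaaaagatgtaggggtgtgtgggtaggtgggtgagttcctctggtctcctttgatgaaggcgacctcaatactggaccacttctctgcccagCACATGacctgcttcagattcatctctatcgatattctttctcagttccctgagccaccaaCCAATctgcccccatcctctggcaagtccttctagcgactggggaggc
Downstream start, chr3:55461478-55461727: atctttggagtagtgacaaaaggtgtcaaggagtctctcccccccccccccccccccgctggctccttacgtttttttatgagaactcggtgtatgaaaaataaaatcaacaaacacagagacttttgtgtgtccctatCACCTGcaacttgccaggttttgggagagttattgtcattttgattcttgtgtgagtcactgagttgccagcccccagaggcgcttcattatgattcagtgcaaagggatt
The upstream window held 2 CANNTG matches and 1 CCAAT match, at a GC content of 52.4%. The downstream window held 1 CANNTG match and no CCAAT match, at 46.8% GC. Among 32851 RefSeq promoter windows of the same length, 66.2% held CANNTG and 33.8% held CCAAT, and the median GC content was 52.4%. Neither window held the CRE core TGACG (17.8% of all windows), the TATA box TATAAA (12.4%) or the GC box GGGCGG (32.7%).

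The targeted gene was checked first. At DIV5 Pxn stood at 12.4 to 19.9 TPM (transcripts per 1000000 transcripts) in the 4 SC libraries and at 8.43 to 9.83 in the 6 libraries labelled paxillin siRNA, a log2 difference of -0.67 (SE 0.18, limma adjusted p = 0.0186). It did not pass the test at DIV3 (-0.16, 7.79 to 11.4 against 9.16 to 11.7 TPM), at DIV10 (0.19, 11.5 to 18.8 against 8.99 to 19.9 TPM) or with BDNF on any day. A difference in the direction the label implies was therefore seen at DIV5 without BDNF, and elsewhere the groups are those of the label alone. The DIV5 level was 13.1, 19.9 and 16.4 TPM in SC libraries 1, 2 and 4 and 12.4 TPM in SC library 3. With BDNF SC library 3 (10.04 TPM) lay within the paxillin siRNA range (8.74 to 13.8 TPM), and SC libraries 1, 2 and 4 lay at 14.3 to 19.0 TPM. Astrocyte genes divided the same SC libraries, as described below, and their part in Pxn was not tested. In hippocampus the reads cannot tell the S119A allele from the floxed one, so Pxn (log2 difference -0.59, SE 0.29, unadjusted p = 0.0699 in edgeR) checks the genotype only in part. None of 12 mature neuron genes was at 0 in any culture library, and their summed level in hippocampus was 6822 to 12004 rpm. Rpm are reads per 1000000 reads, with library totals scaled by the TMM factors of edgeR. For the Dclk1 starts the totals were not scaled. TPM carry no read depth, whereas the hippocampal libraries held 3162777 to 5687908 reads each. All hippocampal libraries numbered 2 at P15 and P21, 4 in all, deviated together from their group partners, and results are given without them where that matters. Libraries numbered 10 and 11 occurred only with paxillin siRNA.

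The levels over days in culture were compared first. Between DIV3 and DIV10 with SC siRNA, 5 of the 8 genes were lower (Dcx, Tubb3, Stmn1, Stmn4 and Gap43), against 19.1% of the 14250 genes tested. Tubb3 (-2.07 on the log2 scale) and Dcx (-1.97) had the largest estimates and Stmn3 (-0.14) the smallest. The median log2 difference of the 8 genes was -0.92, beside -0.04 over all genes tested. With paxillin siRNA 8 of 8 were lower (background 32.4%, medians -1.21 and -0.11), and with SC siRNA and BDNF 6 of 8 (background 22.4%, medians -1.09 and -0.07).

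**Figure D1:**
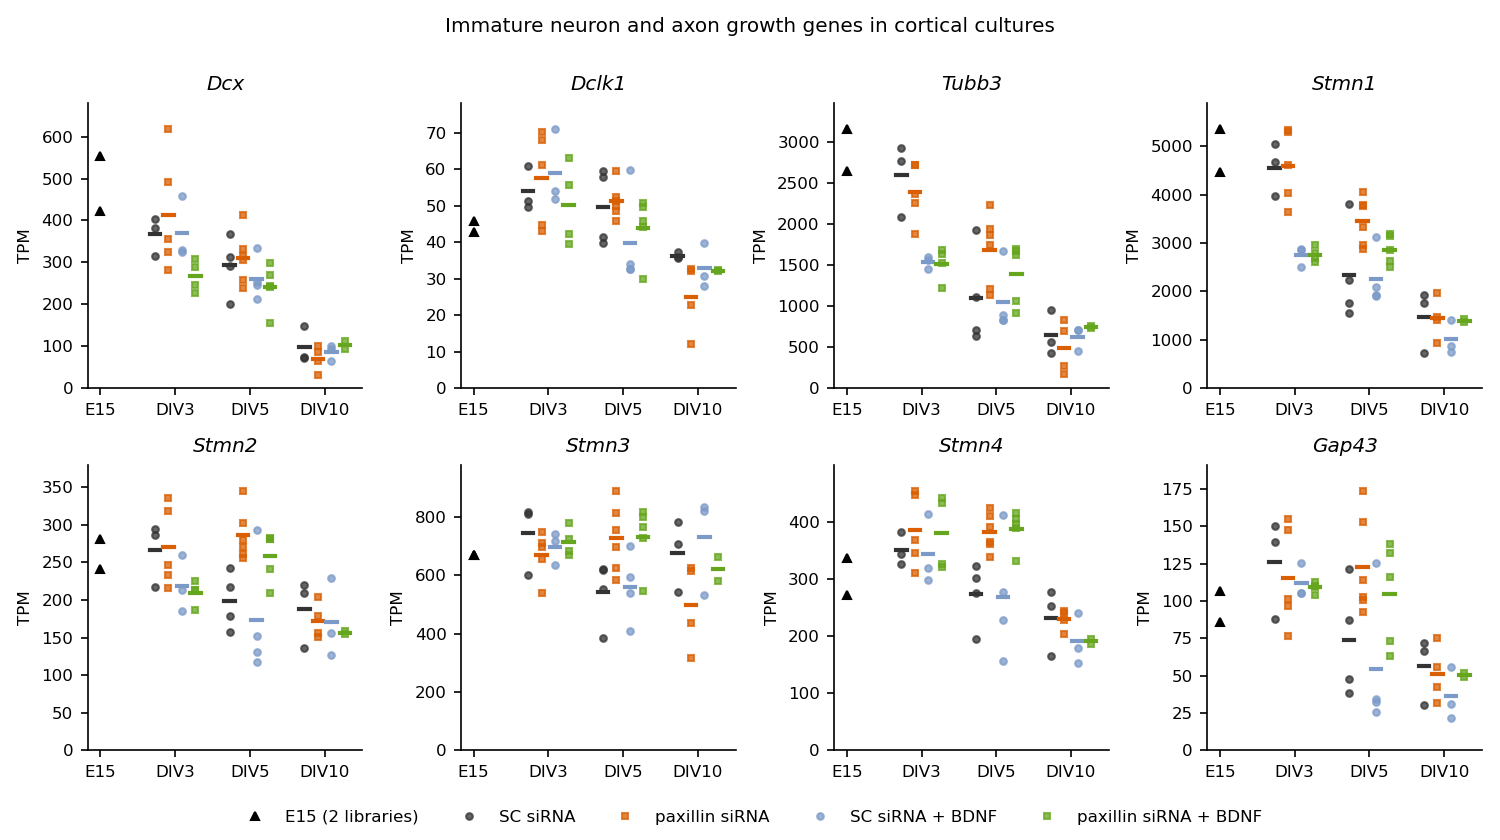
TPM of each of the 8 genes (vertical axes, one panel per gene) in every culture library by day in vitro (horizontal axis), coloured by siRNA and BDNF. Points are libraries, bars are group means and triangles are the 2 E15 libraries. Tubb3 and Stmn1 were already lower at DIV5 with SC siRNA, whereas the fall of Dcx lay between DIV5 and DIV10, when all 12 libraries lay between 31.2 and 148 TPM.

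At E15 and DIV3, Tubb3 and Stmn1 had the highest TPM of the 8 genes, a level corrected for transcript length. Tubb3 stood at 3165 and 2650.2 TPM in the E15 libraries and at 2775, 2934 and 2095 TPM in SC libraries 1, 2 and 3 at DIV3. At DIV5 it was 1112, 641, 1929 and 713 TPM in SC libraries 1 to 4, and at DIV10 559, 433 and 953 TPM in SC libraries 1, 3 and 6. The 3 DIV10 libraries lay below every DIV3 library, and at DIV5 library 3 was the highest. Tubb3 fell by 1.37 on the log2 scale from DIV3 to DIV5 (SE 0.37, adjusted p = 0.0133) and by 2.07 from DIV3 to DIV10 (SE 0.39, adjusted p = 9.66e-05). Its mean was 2601 ± 446 TPM at DIV3 and 648 ± 271 TPM at DIV10 (SD, n = 3 each). Between DIV5 and DIV10 the difference of -0.70 did not pass the test (adjusted p = 0.166).

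Stmn1 stood at 5361 and 4472 TPM at E15 and at 4666, 5049.5 and 3965 TPM at DIV3. At DIV5 it was 2235, 1559, 3806 and 1770.1 TPM and at DIV10 719.8, 1764 and 1929 TPM. Library 3 was again the highest at DIV5, and library 1 the lowest at DIV10. Stmn1 fell by 1.04 from DIV3 to DIV5 (SE 0.26, adjusted p = 0.00873) and by 0.71 from DIV5 to DIV10 (SE 0.26, adjusted p = 0.0456), and the difference over the whole span was -1.75 (SE 0.28, adjusted p = 1.04e-05). Of the 8 genes it alone was past the threshold in both steps.

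Dcx kept its level longer. It stood at 423 and 554 TPM at E15, at 381, 403 and 316 TPM at DIV3, at 368, 202, 292 and 313 TPM at DIV5 and at 71.4, 74.6 and 148 TPM at DIV10. The DIV5 values overlapped those of DIV3, and all DIV10 values lay below both. The log2 difference was -0.34 from DIV3 to DIV5, where it did not pass the test, and -1.62 from DIV5 to DIV10 (SE 0.29, adjusted p = 0.000113), which makes -1.97 over the span (SE 0.31, adjusted p = 7.61e-06). The steps of Dcx and Tubb3 were not tested against each other. Dclk1 followed with a smaller change, from 49.8, 51.3 and 61.03 TPM at DIV3 and 39.7 to 59.5 TPM at DIV5 to 35.7, 35.9 and 37.4 TPM at DIV10. The DIV10 libraries lay below all others, but the difference of -0.56 did not pass the test (adjusted p = 0.0841).

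Gap43 stood at 139.9, 151 and 88.3 TPM at DIV3, at 87.6, 47.7, 121 and 38.3 TPM at DIV5 and at 30.2, 66.9 and 71.7 TPM at DIV10. All DIV10 values lay below those of DIV3, and the DIV5 values spanned both. It fell by 1.21 from DIV3 to DIV10 (SE 0.43, adjusted p = 0.025). Stmn4 went from 326, 343 and 382 TPM at DIV3 to 166, 277 and 253 TPM at DIV10, a fall of 0.62 (SE 0.22, adjusted p = 0.0262). These were the smallest calls of the comparison, and both were lost without DIV10 library 1 (Gap43 adjusted p = 0.194, Stmn4 adjusted p = 0.221) or DIV3 library 2 (Gap43 adjusted p = 0.094, Stmn4 adjusted p = 0.0542). Gap43 was also lost without DIV3 library 1 (adjusted p = 0.0763) and Stmn4 without DIV3 library 3 (adjusted p = 0.0897), whereas Dcx, Tubb3 and Stmn1 passed whichever library was left out.

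The other membrane-bound stathmins changed least. Stmn2 stood at 287, 294 and 218 TPM at DIV3 and at 136, 209.7 and 220.1 TPM at DIV10 (log2 difference -0.51, adjusted p = 0.0826). Stmn3 stood at 818, 812 and 602 TPM at DIV3, at 621, 554, 619 and 384 TPM at DIV5 and at 707, 544 and 784 TPM at DIV10. Its groups overlapped throughout, and the DIV3 to DIV10 difference was -0.14 (adjusted p = 0.664). Among the stathmins, then, the cytosolic Stmn1 had the largest fitted fall and Stmn3 the smallest, although the genes were not tested against each other.

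By step, 2 of 8 genes were lower from DIV3 to DIV5 (Tubb3 and Stmn1, background 1.48%) and 2 of 8 from DIV5 to DIV10 (Dcx and Stmn1, background 19.2%). Both counts were 0 in a fit of the compared groups alone, and the second was 5 with the replicate block (Dcx, Dclk1, Tubb3, Stmn1 and Stmn4). The first count ranged from 0 to 3 as single libraries were left out. It was 0 without DIV3 library 2 or DIV5 library 2 and 1 (Stmn1) without DIV3 library 1 or DIV5 library 4, and without DIV5 library 3 Gap43 joined Tubb3 and Stmn1 (log2 difference -1.16, adjusted p = 0.0457). The second count was 1, Dcx, without DIV10 library 1 (Stmn1 then -0.25, adjusted p = 0.554), DIV5 library 1 or DIV5 library 3. TPM are shares of a library, so the median of all genes moved with the scaling: median ratio size factors shifted every log2 difference by -0.14 in the first step and by 0.15 in the second. The calls over all genes were 211 lower and 1139 higher in the first step, or 473 and 739 after that rescaling, and 2731 lower and 820 higher in the second, or 1386 and 1127. From E15 to DIV3 with SC siRNA none of the 8 genes passed the test (background 8.11%), with log2 differences from -0.41 (Dcx) to 0.35 (Gap43).

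With paxillin siRNA the same list fell between DIV3 and DIV10 in other libraries. Dcx went from 281, 325, 356, 491 and 619 TPM at DIV3 to 31.2, 64.6, 86.1 and 101 TPM at DIV10, a fall of 2.60 (adjusted p = 1.95e-10). Tubb3 went from 1888 to 2727 TPM at DIV3 to 178, 269.9, 833 and 695 TPM at DIV10, a fall of 2.54 (adjusted p = 3.85e-08). The DIV10 libraries numbered 1 and 2 were lower than those numbered 10 and 11 in both genes. Dclk1 went from 43.2, 44.8, 61.2, 68.1 and 70.3 TPM to 12.1, 22.8, 32.2 and 32.7 TPM and fell by 1.24 (adjusted p = 5.08e-06). Stmn1, Gap43, Stmn4, Stmn2 and Stmn3 fell by 1.70, 1.17, 0.73, 0.63 and 0.47, with adjusted p-values from 1.46e-07 (Stmn1) to 0.0256 (Stmn3). Stmn3 was the only call lost when single libraries were left out, without DIV10 library 1 (adjusted p = 0.217), DIV10 library 2 (adjusted p = 0.0708) or DIV3 library 10 (adjusted p = 0.0582).

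**Figure D2:**
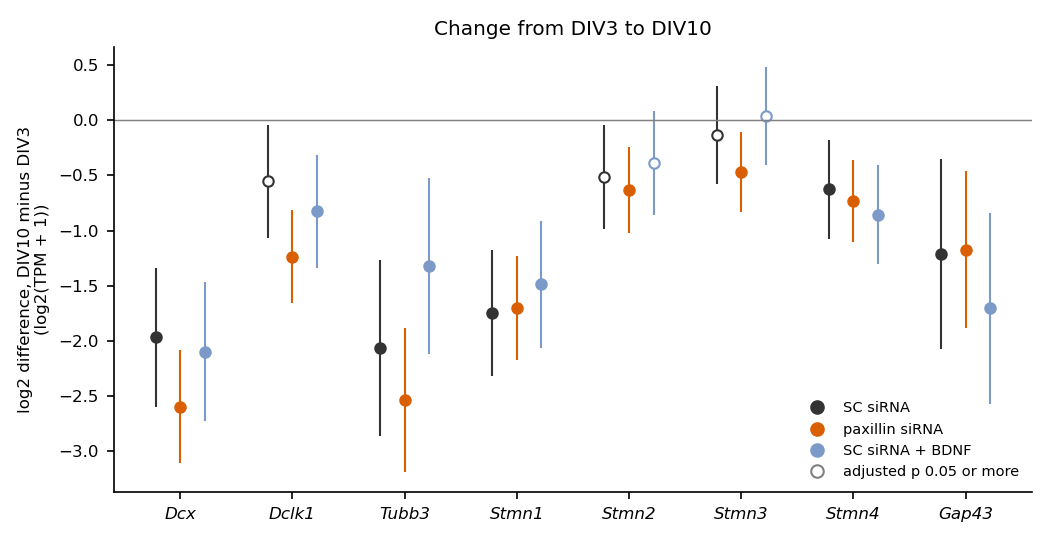
Log2 difference in TPM + 1 from DIV3 to DIV10 (vertical axis) for each of the 8 genes (horizontal axis) under SC siRNA, paxillin siRNA, and SC siRNA with BDNF. Points are limma estimates, bars 95% intervals, and open points did not pass an adjusted p of 0.05. Dcx, Tubb3 and Stmn1 lie well below 0 in all 3 conditions, from -1.32 to -2.60, and Stmn3 lies nearest 0, from -0.47 to 0.04.

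The change from DIV3 to DIV10 was then compared between the siRNAs. The difference passed the test for 0 of 8 genes (background 0.00702%). Dclk1 had the largest estimate, -0.68 (95% interval -1.35 to -0.02, unadjusted p = 0.0437, adjusted p = 0.543), and Dcx followed with -0.63 (-1.44 to 0.18). Tubb3 had an estimate of -0.47 (-1.50 to 0.56), Stmn1 of 0.05 (-0.69 to 0.79) and Gap43 of 0.04 (-1.08 to 1.15). These intervals leave room for differences of over 1 on the log2 scale in Dcx, Dclk1, Tubb3 and Gap43. The larger count with paxillin siRNA is therefore not a tested difference between the siRNAs, and that arm also had more libraries. Median ratio scaling shifted the change with paxillin siRNA by 0.12 and its difference from SC siRNA by 0.11, which changed the sign of that difference for Stmn4.

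With SC siRNA and BDNF, Dcx went from 329.6, 326 and 458 TPM at DIV3 to 100.1, 65.7 and 92.7 TPM at DIV10, a fall of 2.10 (adjusted p = 2.06e-06). Gap43 fell by 1.71 (adjusted p = 0.00156), Stmn1 by 1.49 (adjusted p = 7.31e-05), Tubb3 by 1.32 (adjusted p = 0.00722), Stmn4 by 0.86 (adjusted p = 0.00221) and Dclk1 by 0.83 (adjusted p = 0.00878). Stmn2 (-0.39, adjusted p = 0.183) and Stmn3 (0.04, adjusted p = 0.911) did not pass. Dclk1 was lost without DIV3 library 3 (adjusted p = 0.0611), and Stmn2 passed without DIV10 library 3 (adjusted p = 0.0422). The DIV3 and DIV10 libraries did not overlap for 6 genes of the list with SC siRNA, 7 with paxillin siRNA and 6 with SC siRNA and BDNF. Overlap was not examined for genes outside the list, so these counts do not set the list apart from other genes.

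A second list of 22 genes of growth cones and young neurons, which holds none of the 8, moved the same way. Like the 8 genes, it was chosen with earlier results of these data known, so it is no independent support. From DIV3 to DIV10 16 of 22 were lower with SC siRNA (median -1.19, background 19.1%), 22 of 22 with paxillin siRNA (median -1.55, background 32.4%) and 18 of 22 with SC siRNA and BDNF (median -1.05, background 22.4%), and none was higher. With SC siRNA the largest changes were those of Igfbpl1, a gene of newborn neurons (-3.01, SE 0.62, adjusted p = 0.000282), and Sox11, a transcription factor of neuronal differentiation (-2.81, SE 0.33, adjusted p = 6.57e-08). With paxillin siRNA they were Igfbpl1 (-3.83) and Cntn2, an axonal adhesion molecule (-3.41). With BDNF they were Sox11 (-3.02) and Igfbpl1 (-2.55). By step, 4 of 22 were lower from DIV3 to DIV5 (background 1.48%), led by Cntn2 (-1.58) and the α-tubulin gene Tuba1a (-1.04), and 14 of 22 from DIV5 to DIV10 (background 19.2%), led by Sox11 (-1.79) and Igfbpl1 (-1.62).

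Markers of other cells moved over the same days, beside 16.1% of all tested genes higher with SC siRNA and 21.9% with paxillin siRNA, and in bulk libraries fewer cells of a type and less RNA per cell cannot be told apart. With SC siRNA from DIV3 to DIV10, 6 of 9 astrocyte genes were higher, and their summed level was 326 to 954 TPM at DIV3, 1407 to 8688 TPM at DIV5 and 1687 to 8659 TPM at DIV10. Of the other lists, 6 of 7 oligodendrocyte, 4 of 5 tested microglial and 2 of 5 oligodendrocyte precursor genes were higher, and 4 of 8 genes of dividing cells and progenitors were lower. Of the mature neuron genes, 7 of 12 were higher. With paxillin siRNA 8 of 9 astrocyte genes were higher (330.2 to 1076 TPM at DIV3, 1121 to 9099.8 TPM at DIV10), while 4 of 12 mature neuron genes were higher and 2 lower, beside 21.9% and 32.4% of all tested genes. A term for the summed astrocyte level was added to the fit after the data were seen. With it 3 of 8 genes passed with SC siRNA and 3 with SC siRNA and BDNF (Dcx, Tubb3 and Stmn1 in both). With paxillin siRNA 5 passed (Dcx, Dclk1, Tubb3, Stmn1 and Stmn3). Of all genes, 4960 passed in that fit with SC siRNA and BDNF, in either direction, against 5745 of 14250 without the term. Counts over all genes with the term are not given for the other conditions. These calls therefore do not set the list apart from other genes.

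The study next compared the siRNAs on each day. At DIV5 without BDNF, 0 of 8 genes passed the test (background 6.18%), and all 8 estimates were above 0, from 0.07 to 0.84. Stmn2 was 243, 178, 217 and 157 TPM in SC libraries 1 to 4 and 279.7, 262, 257, 270.5, 303 and 345 TPM in libraries 1, 2, 3, 4, 10 and 11 labelled paxillin siRNA. Stmn4 was 301, 275, 323 and 195 TPM with SC and 364, 360.2, 391, 338, 409.97 and 424 TPM with paxillin siRNA. For both genes every paxillin siRNA library lay above every SC library. The log2 difference was 0.53 for Stmn2 (95% interval 0.16 to 0.91, adjusted p = 0.0725), 0.50 for Stmn4 (0.14 to 0.85, adjusted p = 0.0782) and 0.64 for Stmn1 (0.19 to 1.09, adjusted p = 0.0747). Gap43 (0.84, adjusted p = 0.127), Tubb3 (0.72, adjusted p = 0.156) and Stmn3 (0.43, adjusted p = 0.128) missed by more, and Dcx (0.09) and Dclk1 (0.07) were near 0. The median of the 8 genes was 0.52, beside -0.08 over all genes tested.

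Libraries that share a number across the siRNAs deviated together at DIV5 (correlations 0.244 to 0.488 over 4 pairs), and with that number as a replicate block Stmn1 (0.56, adjusted p = 0.031) and Stmn4 (0.41, adjusted p = 0.0128) passed. Calls over all genes rose in that fit too, as given below, so these calls do not set the list apart from other genes. The library names also carry an S number, whose meaning is not stated. It was 1, 2, 4 and 11 in SC libraries 1 to 4. In paxillin siRNA libraries 1, 2, 3, 4, 10 and 11 it was 71, 72, 7, 12, 30 and 2. Of the libraries numbered 3, the one with paxillin siRNA had less Tubb3 (1746 against 1929 TPM) and Stmn1 (3781 against 3806 TPM). It also had less Gap43 (103 against 121 TPM) and Dclk1 (48.7 against 59.5 TPM), and more Dcx, Stmn2, Stmn3 and Stmn4. The remaining calls depended on 1 library. SC library 3 had the highest Tubb3, Stmn1, Stmn4 and Gap43 of its group, and without it 5 of 8 genes passed: Gap43 (1.12, adjusted p = 0.0287), Tubb3 (1.04, adjusted p = 0.0252), Stmn1 (0.91, adjusted p = 0.00635), Stmn4 (0.59, adjusted p = 0.0338) and Stmn2 (0.58, adjusted p = 0.0473). Of all 14250 genes 2126 passed without that library, 430 of them higher, against 880 and 114 with it. The astrocyte genes divided the same libraries. Their summed level was 4448, 7323 and 8688 TPM in SC libraries 1, 2 and 4, against 1407 TPM in SC library 3 and 1149 to 2059.6 TPM in the 6 paxillin siRNA libraries. Over all genes tested 5.38% were lower and 0.8% higher. As a list 2 of 9 astrocyte genes were lower with paxillin siRNA (median -1.13), 1 of 12 mature neuron genes was higher, and 1 of 22 young neuron genes was higher (Tubb2b, a β-tubulin of young neurons, 0.71, SE 0.20, adjusted p = 0.0309). The fit with the astrocyte term covered the siRNA comparisons as well, but it was no test of the part of the astrocyte level in these differences.

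**Figure D3:**
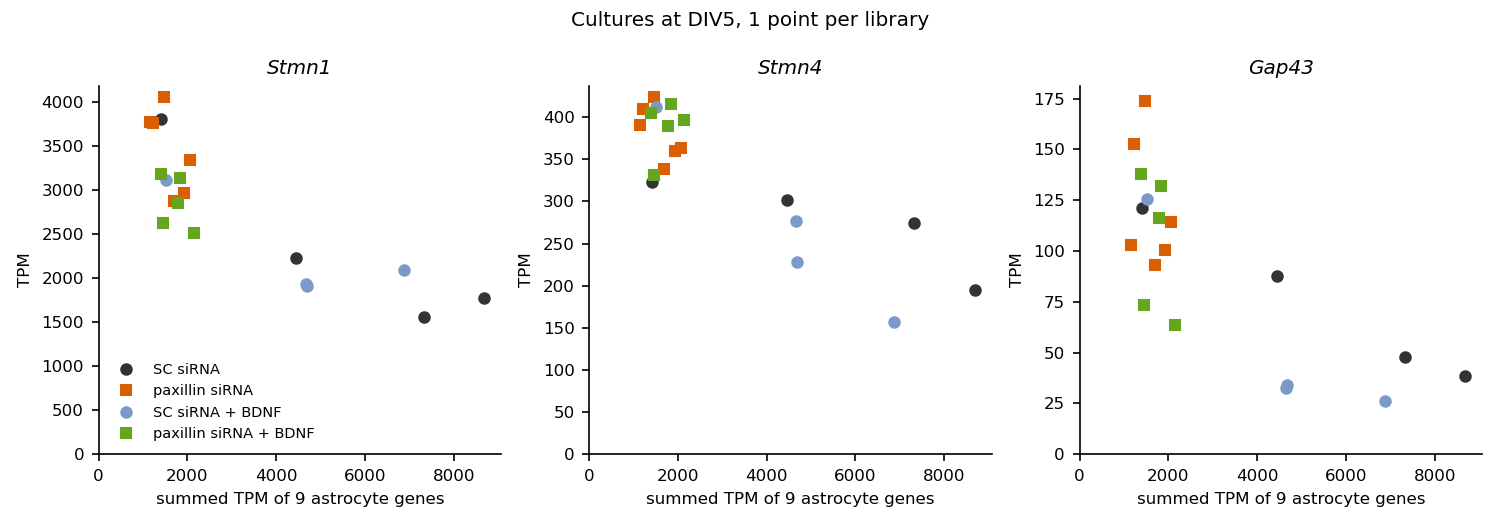
TPM of Stmn1, Stmn4 and Gap43 (vertical axes) against the summed TPM of 9 astrocyte genes (horizontal axis) in each DIV5 library, marked by siRNA and BDNF. The SC libraries numbered 3 lie among the paxillin siRNA libraries, at 1407 and 1514 TPM of astrocyte genes, and the other 6 SC libraries lie to the right, at 4448 TPM and above.

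With BDNF at DIV5 again 0 of 8 passed (background 0.596%). These libraries carry the same numbers as those without BDNF and deviated together with them (correlations 0.511 to 0.787 with SC, 0.317 to 0.782 with paxillin siRNA), so the comparison is not independent of the previous one. Gap43 was 32.5, 34.2, 126 and 26.0 TPM in SC libraries 1 to 4 and 116, 63.5, 73.4, 138 and 132 TPM in paxillin siRNA libraries 1, 2, 4, 10 and 11. SC library 3 was the highest SC value by a wide margin and overlapped the paxillin siRNA group. The log2 differences were 1.17 for Gap43 (0.46 to 1.88, adjusted p = 0.0863), 0.66 for Stmn2 (0.28 to 1.05, adjusted p = 0.0774) and 0.61 for Stmn4 (0.24 to 0.98, adjusted p = 0.0863). Without SC library 3 these 3 genes passed, at 1.67 (adjusted p = 0.0021), 0.95 (adjusted p = 0.00148) and 0.84 (adjusted p = 0.00344). Of all 14250 genes 1297 passed in that setting, 499 of them higher, against 85 and 17 with every library. The astrocyte sum was 4659, 4682 and 6869 TPM in SC libraries 1, 2 and 4, 1514 TPM in SC library 3 and 1393 to 2146 TPM with paxillin siRNA, and its part was not tested here either. The median of the 8 genes was 0.41, beside -0.10 over all genes.

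At DIV10 without BDNF the estimates leaned the other way for several genes, and 0 of 8 passed (background 2.58%). Dclk1 was 35.7, 35.9 and 37.4 TPM with SC and 12.1, 22.8, 32.2 and 32.7 TPM with paxillin siRNA, so the groups did not overlap. The log2 difference was -0.62 (95% interval -1.10 to -0.14, adjusted p = 0.106). Tubb3 (-0.59, adjusted p = 0.32), Dcx (-0.51, adjusted p = 0.272) and Stmn3 (-0.48, adjusted p = 0.142) were also below 0, and the other 4 lay between -0.11 and 0.05. Median ratio scaling shifted all log2 differences here by 0.11, which changed the sign of Stmn2 and Gap43. The comparison depended on which libraries entered. Without paxillin siRNA library 10 Dclk1 passed (-0.77, adjusted p = 0.0346), without library 11 Dclk1 (-0.78, adjusted p = 0.0301) and Stmn3 (-0.61, adjusted p = 0.0473) passed, and without SC library 3 Stmn3 passed (-0.63, adjusted p = 0.0488). Of all 14250 genes, 2079, 2305 and 2659 passed in these 3 settings, against 367 with every library. Without both libraries 10 and 11, which leaves 2 paxillin siRNA libraries, Tubb3 (-1.48, adjusted p = 0.00415), Dclk1 (-1.08, adjusted p = 0.00235), Dcx (-1.03, adjusted p = 0.00982) and Stmn3 (-0.85, adjusted p = 0.00905) passed. The count over all genes is not given for that setting, so these calls do not set the list apart from other genes. Marker sums divided the same libraries. The astrocyte sum was 1689 and 1121 TPM in paxillin siRNA libraries 1 and 2 and 7895 and 9099.8 TPM in libraries 10 and 11, against 8659, 1687 and 4496 TPM with SC. The oligodendrocyte precursor sum was 159.8 and 773 TPM in libraries 1 and 2 and 2597 and 3631 TPM in libraries 10 and 11, against 4100.5, 1161 and 3367 TPM with SC. The mature neuron sum was 1239.7 and 1805 TPM in libraries 1 and 2 and 2844 and 2919 TPM in libraries 10 and 11. The part of these cells in the differences was not tested. With all libraries, 2 of 12 mature neuron genes and 1 of 8 genes of dividing cells were lower (background 2.18%), and 0 of 9 astrocyte genes passed the test.

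In the remaining siRNA comparisons no gene of the list passed. At DIV3 the estimates lay between -0.15 (Stmn3) and 0.12 (Stmn4), and no gene of the whole table passed (background 0%), with 21 at an unadjusted limma p under 0.05. At DIV3 with BDNF they lay between -0.46 (Dcx) and 0.14 (Stmn4), and no gene of the whole table passed (background 0%), with 229 at an unadjusted limma p under 0.05. Dcx was 329.6, 326 and 458 TPM with SC and 228, 247, 308 and 288 TPM with paxillin siRNA there, without overlap. At DIV10 with BDNF 0 of 8 passed (background 0.0211%), with estimates from -0.21 (Stmn3) to 0.58 (Gap43). The 2 paxillin siRNA libraries of that group are numbered 10 and 11 and the SC libraries 1, 2 and 3, so the siRNA and the library number cannot be told apart.

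BDNF itself was compared within each siRNA. At DIV3 Tubb3 and Stmn1 stood lower in every BDNF library, but 0 of 8 genes passed with SC siRNA (background 1.21%) or with paxillin siRNA (background 2.14%). Stmn1 was 4666, 5049.5 and 3965 TPM without and 2504, 2881 and 2864 TPM with BDNF under SC siRNA, a difference of -0.73 (95% interval -1.30 to -0.15, adjusted p = 0.285). Under paxillin siRNA it was 3652 to 5344 TPM without and 2789.9, 2959, 2618 and 2687.5 TPM with BDNF (-0.72, -1.19 to -0.25, adjusted p = 0.113). Tubb3 was 2095 to 2934 TPM without and 1449.7, 1604.5 and 1561 TPM with BDNF under SC siRNA (-0.74, adjusted p = 0.537), and 1888 to 2727 TPM without and 1227 to 1682 TPM with BDNF under paxillin siRNA (-0.65, adjusted p = 0.402). Neither gene overlapped between its groups under either siRNA. Libraries that share a number deviated together under paxillin siRNA (correlations 0.44 to 0.745 over 4 pairs), and with the number as a replicate block Stmn1 (-0.67, adjusted p = 0.036) and Dcx (-0.60, adjusted p = 0.0417) passed. The count over all genes in that fit is not given, so these calls do not set the list apart from other genes. Among the 22 other young neuron genes, Nrep fell with BDNF under paxillin siRNA (-1.08, SE 0.22, adjusted p = 0.00292), and mature neuron genes rose, 1 of 12 under SC (background 1.03%) and 3 of 12 under paxillin siRNA (background 1.31%).

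At DIV5 the estimates for both genes were nearer 0. Under SC siRNA BDNF gave 0.02 for Tubb3 and 0.01 for Stmn1, and under paxillin siRNA -0.28 and -0.27, with 0 of 8 genes past the threshold in either (backgrounds 0.0491% and 0.014%). The change in the BDNF effect from DIV3 to DIV5, a contrast added after the data were seen, passed for 0 of 8 genes under SC siRNA (background 0.0982%) and 0 of 8 under paxillin siRNA (background 0.133%). For Stmn1 it was 0.74 (95% interval -0.02 to 1.49, adjusted p = 0.59) under SC and 0.45 (-0.19 to 1.08, adjusted p = 0.999) under paxillin siRNA. At DIV10 0 of 8 passed under SC siRNA, with estimates from -0.64 (Gap43) to 0.09 (Stmn3), and no gene of the whole table passed (background 0%), with 352 at an unadjusted limma p under 0.05. Under paxillin siRNA 0 of 8 passed (background 0.014%), with estimates from -0.26 (Stmn4) to 0.87 (Tubb3, adjusted p = 0.271).

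In the hippocampus most of the list fell between P10 and P21. Dcx, Tubb3, Stmn1, Stmn2, Stmn4 and Gap43 were lower, 6 of 8 genes, against 6.73% of the 13245 genes tested. Gap43 had the largest estimate, a mean of 769 rpm at P10 and 157 rpm at P21, and Dclk1 and Stmn3 did not pass. The median log2 difference of the 8 genes was -1.52, beside 0.00 over all genes tested. Values in rpm do not correct for transcript length, so levels are compared only within a gene. The tests used both genotypes with a term for genotype, n = 4 libraries at each age.

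**Figure D4:**
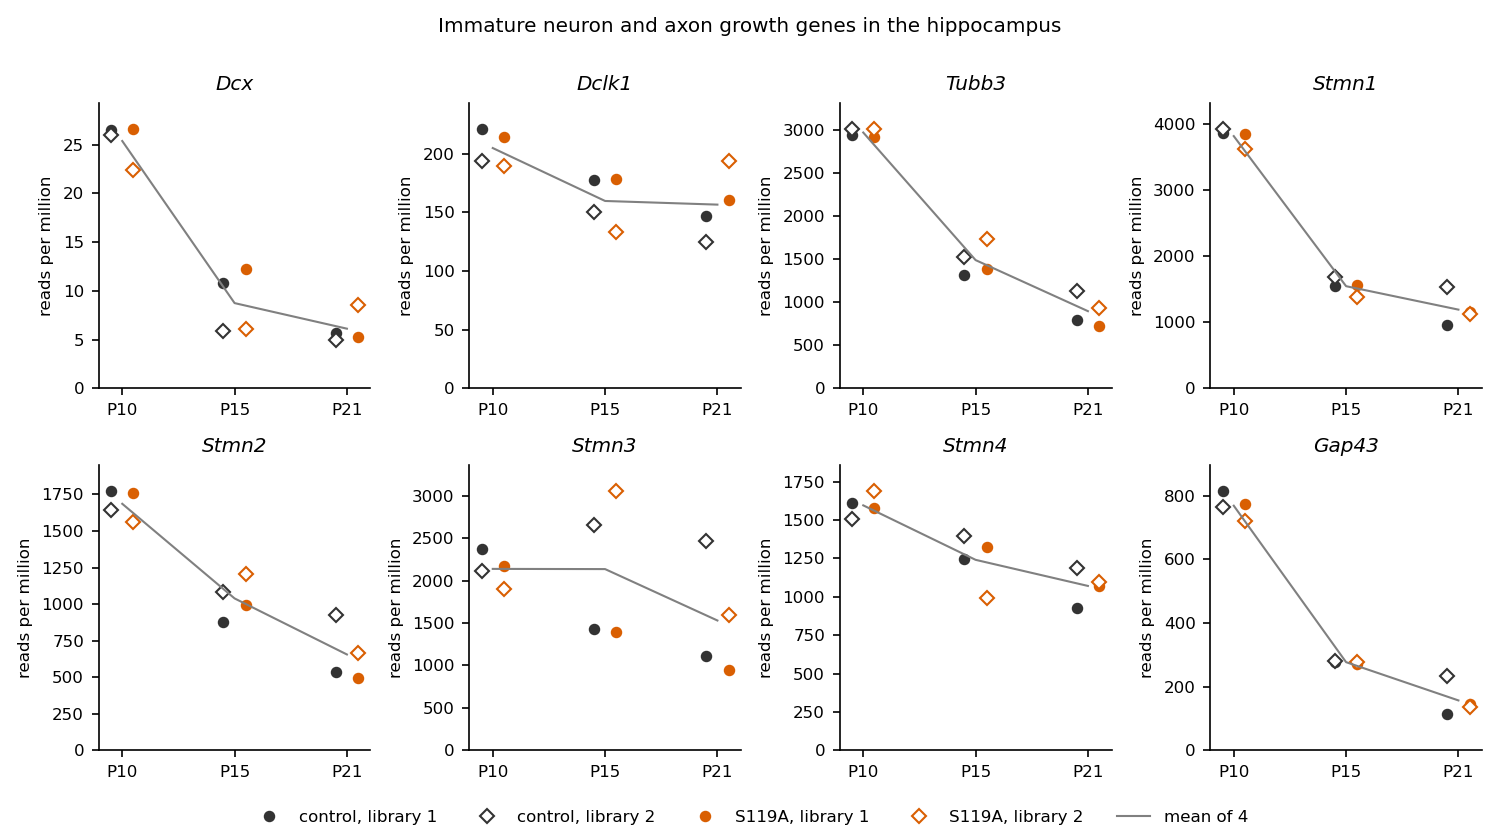
Rpm of each of the 8 genes (vertical axes, one panel per gene) in the 12 hippocampal libraries at P10, P15 and P21 (horizontal axis), coloured by genotype. Diamonds are libraries numbered 2, and the line joins the means of 4 libraries. Gap43, Stmn1 and Tubb3 at P10 lie above every later library, and the 4 highest Stmn3 values at P15 and P21 are the libraries numbered 2.

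Gap43 was 815, 765, 774 and 721 rpm at P10 (control 1, control 2, S119A 1 and S119A 2), 279, 280.1, 273 and 277 rpm at P15 and 114, 233, 145 and 136 rpm at P21. The ages did not overlap, and control 2 was the highest at P21. It fell by 1.47 from P10 to P15 (SE 0.19, edgeR adjusted p = 0.00269) and by 2.30 from P10 to P21 (SE 0.20, adjusted p = 9.74e-05). Its means were 769 ± 38.7, 277 ± 3.17 and 157 ± 52.6 rpm (SD, n = 4 each).

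Among the microtubule genes, Tubb3 was 2941, 3013, 2914 and 3009.8 rpm at P10, 1315, 1519.7, 1388 and 1731 rpm at P15 and 794, 1133, 724 and 932 rpm at P21. The ages again did not overlap. Tubb3 fell by 1.00 to P15 (SE 0.15, adjusted p = 0.00611) and by 1.73 to P21 (SE 0.16, adjusted p = 0.000122). Dcx was low throughout, 26.5, 26.0, 26.6 and 22.4 rpm at P10, 10.8, 5.87, 12.2 and 6.07 rpm at P15 and 5.703, 4.93, 5.26 and 8.59 rpm at P21. These values rest on 16 to 145 reads a library, and P10 lay above all later libraries. Dcx fell by 1.53 to P15 (SE 0.27, adjusted p = 0.0115) and by 2.05 to P21 (SE 0.28, adjusted p = 0.00106), and the first call was lost without P10 control 1 (adjusted p = 0.0501) or control 2 (adjusted p = 0.05005). Dclk1 went from 221, 193, 214 and 189.7 rpm at P10 to 177, 150.1, 178 and 133 rpm at P15 and 147, 125, 160.3 and 194 rpm at P21. It did not pass in either span (-0.36 and -0.39, adjusted p = 0.209 and 0.118).

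Of the stathmins, Stmn1 was 3859, 3922, 3849 and 3615 rpm at P10, 1549, 1681, 1564 and 1379 rpm at P15 and 952, 1527, 1157 and 1120.2 rpm at P21. It fell by 1.31 to P15 (SE 0.14, adjusted p = 0.00142) and by 1.68 to P21 (SE 0.15, adjusted p = 0.000102). Stmn2 was 1774, 1644, 1761 and 1562 rpm at P10 and 533, 922, 498 and 669 rpm at P21, a fall of 1.37 (SE 0.20, adjusted p = 0.00142). Stmn4 was 1610.1, 1507, 1576 and 1690.1 rpm at P10 and 930.3, 1185, 1070.3 and 1099 rpm at P21, a fall of 0.58 (SE 0.13, adjusted p = 0.0155) that was lost without P10 S119A 2 (adjusted p = 0.0536). All P21 values of these 3 genes lay below all of P10. Stmn3 split by library number instead, 1431, 2655, 1396 and 3055 rpm at P15 and 1110.45, 2459.6, 949 and 1598 rpm at P21, where the libraries numbered 2 were the high values. Its P10 values were 2367, 2109, 2168 and 1903 rpm, and the P10 to P21 difference was -0.49 (SE 0.33, adjusted p = 0.353).

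By step, 4 of 8 genes were lower from P10 to P15 (Dcx, Tubb3, Stmn1 and Gap43, background 1.99%), with a median of -0.85 beside 0.00 over all genes. From P15 to P21 0 of 8 passed (background 0.174%), although Tubb3 (-0.73, adjusted p = 0.114) and Gap43 (-0.83, adjusted p = 0.138) did not overlap between the ages. The libraries numbered 2 bore on these counts. Without those 4 libraries 8 of 8 genes were lower from P10 to P21, with Stmn3 at -1.03 (adjusted p = 3.92e-07) and Dclk1 at -0.39 (adjusted p = 0.00577), 7 from P10 to P15 and 6 from P15 to P21. Calls over all genes rose in that fit too, from 795 with every library to 2339 for P10 to P15. With the library number as a replicate block, Tubb3 passed from P15 to P21 (-0.74, adjusted p = 0.0407), and with a term for the 4 libraries Tubb3, Stmn2, Stmn3 and Gap43 passed. Without P21 control 2 alone, Gap43 passed from P15 to P21 (-1.08, adjusted p = 0.041).

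The 22 other young neuron genes fell with age too, 11 of 22 from P10 to P15 (background 1.99%), 1 of 22 from P15 to P21 (Dpysl5, -0.95, SE 0.15, adjusted p = 0.0498) and 17 of 22 from P10 to P21 (background 6.73%), and none rose. Dpysl3, a collapsin response mediator of growth cones (-3.45, SE 0.26, adjusted p = 7.19e-05), and Nrep (-3.11, SE 0.27, adjusted p = 0.000106) had the largest changes over the whole span. Their summed level went from 34244 to 35568 rpm at P10 to 11358 to 16047 rpm at P21. Oligodendrocyte genes rose over the same ages, 7 of 7 where 9.26% of all tested genes rose, from 303 to 419 rpm at P10 to 4379 to 7633 rpm at P21. Of the other lists, 5 of 12 mature neuron, 3 of 9 astrocyte and 2 of 5 tested microglial genes rose, 4 of 7 tested genes of dividing cells fell, and 0 of 5 oligodendrocyte precursor genes passed the test. The part of these cells in the falls was not tested.

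Long reads also separate transcripts. Of the transcripts of the 8 genes, 25 were tested from P10 to P21, of which 10 were lower (background 5.94%) and 3 higher (background 8.71%). All 3 that rose belonged to Dclk1 or Stmn4, genes that had lower transcripts as well. For Dclk1, NM_001111052 (0.98, adjusted p = 0.0319) and NM_001357468 (1.45, adjusted p = 0.0043) rose while NM_001111053 (-1.52, adjusted p = 0.00145), NM_001195538 (-1.09, adjusted p = 0.00902) and XM_006500983 (-2.24, adjusted p = 0.00697) fell. For Stmn4, XM_006519316 rose (0.90, adjusted p = 0.0225) and NM_019675 fell (-0.66, adjusted p = 0.00986). The Dclk1 total, with its difference of -0.39, thus summed transcripts that moved in opposite directions.

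The share of a gene's reads on its leading transcript was compared between P10 and P21 for the 3 genes with several transcripts. For Dclk1, NM_001195538 took 33.2%, 33.4%, 29.6% and 32.1% of reads at P10 and 19.3%, 16.8%, 20.7% and 21.2% at P21, without overlap. The mean share changed by -12.6 percentage points (two-sided exact permutation p = 0.0286, the smallest that 4 against 4 libraries allow, adjusted over 3 genes p = 0.0429). For Stmn4, NM_019675 took 87.2%, 87.0%, 86.7% and 88.2% at P10 and 80.9%, 82.2%, 80.8% and 80.98% at P21, a change of -6.06 points (exact permutation p = 0.0286, adjusted p = 0.0429). At P15 the Dclk1 share was 20.9% ± 4.06 and the Stmn4 share 87.3% ± 1.24 (SD, n = 4 each), the first near its P21 level and the second near its P10 level. The Dcx share did not pass the test (42.6% and 38.3%, exact permutation p = 0.314).

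Grouped by where they start, the Dclk1 reads moved away from the upstream start whose promoter window is shown above. The 3 upstream transcripts encode 739, 363 and 756 codons and the 4 downstream ones 422, 432, 449 and 56. Together they held 71.6% of Dclk1 reads, and 10 other transcripts with reads had no start in the annotation used. This grouping was chosen after the counts were seen and is given as a description, without a test. Reads from the upstream start made up 70.5%, 71.1%, 71.5% and 70.3% at P10 (control 1, control 2, S119A 1, S119A 2), 47.7%, 34.2%, 48.1% and 54.4% at P15 and 46.7%, 35.8%, 45.3% and 39.8% at P21. All P10 libraries lay above all later ones, and the P10 values lay within 70.3% and 71.5%. In rpm from unscaled library totals, the upstream group went from 103 ± 7.16 at P10 to 51.9 ± 12.2 at P15 and 49.3 ± 11.96 at P21. The downstream group went from 42.5 ± 2.99 to 60.6 ± 12.2 and 68.1 ± 16.3 (SD, n = 4 each in both groups). The lowest shares at P15 and P21 were both control 2, 1 of the libraries that stood apart. Counting error alone gives that P15 share a 95% Wilson interval of 30.2% to 38.4%, and such intervals do not cover amplification.

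**Figure D5:**
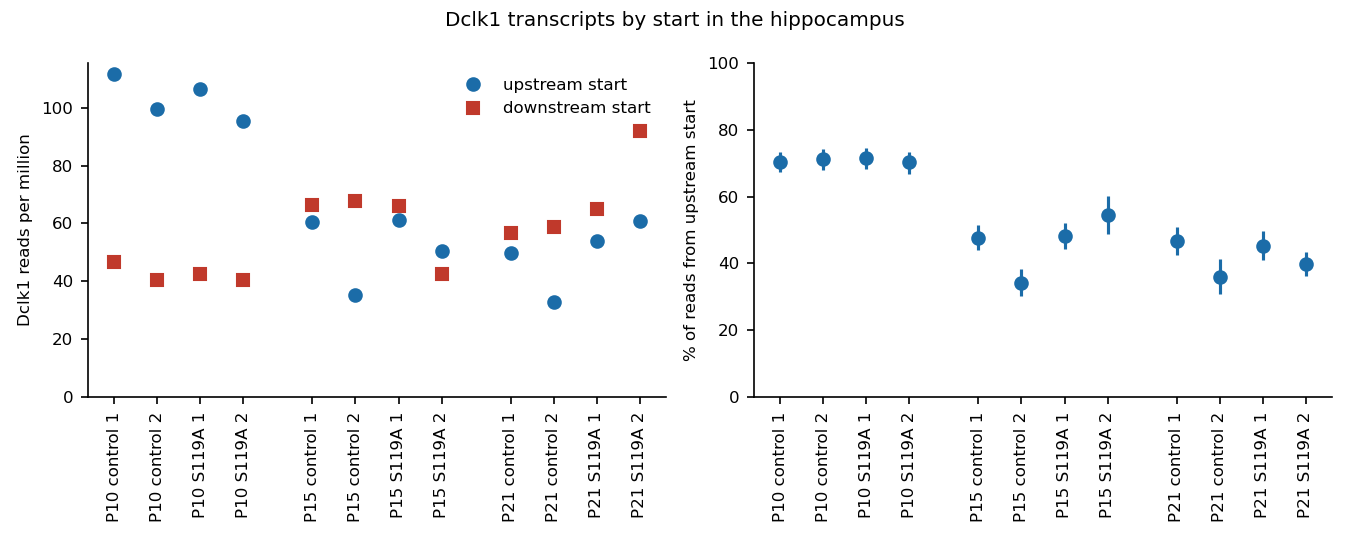
Left, rpm (unscaled library totals) of Dclk1 transcripts from the upstream and the downstream start in the 12 hippocampal libraries by age. Right, percent of those reads from the upstream start, with 95% Wilson intervals. The upstream share lies between 70.3% and 71.5% at P10 and between 34.2% and 54.4% at the later ages.

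The S119A genotype was compared with control over the 3 ages, with age in the fit. None of the 8 genes passed, and neither did any gene of the whole table (background 0%, with 118 genes at an unadjusted edgeR p under 0.05 and 0 calls by DESeq2). The 8 estimates lay between -0.17 (Stmn3, SE 0.27) and 0.13 (Dcx, SE 0.22), and for Stmn1, the gene with the second smallest SE, the estimate was -0.11 (SE 0.12). The difference between the genotypes in the change from P10 to P21 was tested as well, in a contrast added later, and 0 of 8 genes passed (background 0%, with 154 genes at an unadjusted edgeR p under 0.05), with estimates from -0.35 (Stmn3, SE 0.72) to 0.48 (Dcx, SE 0.59). With 2 libraries a genotype at each age, differences of the size of these errors were not detectable.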

How the data were processed

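Cortical cultures were measured by paired-end RNA-seq of mRNA and hippocampus by Nanopore sequencing of full-length cDNA. The TPM values were made by the authors with STAR 2.7.10 and RSEM 1.3.3 on GRCm38.p6 and sum to 1000000 per library, so read depth is unknown. The deposited counts are whole reads per RefSeq transcript, made by the authors with minimap2, SAMtools (mapping quality filter) and IsoQuant on mm10. The cDNA had been amplified and size selected, and the size selection removed short molecules. The kit carries UMIs, but no UMI step is stated, so amplified copies may have been counted. The labels give mouse and the methods rat for the cultures. No 2 of the 60 libraries were identical.

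Reads were summed per gene through RefSeq (119242 of 122459 transcripts matched, 98.2% of reads). For TPM, genes averaging 1 TPM or more (14250) were fitted as log2(TPM + 1) in limma 3.58.1 with 1 term per group over all 48 libraries and trended variance, so differences of low genes are understated. Counts were tested with edgeR 4.0.16 (TMM, quasi-likelihood) with terms for age and genotype, and transcripts likewise. P-values were Benjamini-Hochberg adjusted over all genes, with 0.05 as the threshold. Shares of reads used an exact permutation test. Scripts were tested on simulated data with 200 changed genes. At a log2 change of 1 limma recovered 58.5% (DIV3 to DIV10, SC siRNA), 72% (paxillin against SC siRNA, DIV5) and 58% (BDNF with SC siRNA, DIV3). From P10 to P21 edgeR recovered 0.5% at a log2 change of -1 and 65.5% at -2. An absent call therefore does not exclude changes of these sizes. Versions were scipy 1.17.1, pandas 2.3.3 and matplotlib 3.10.9 under Python 3.11.15, and R 4.3.3 for the models. Gene positions came from GENCODE vM21 and promoter windows from RefSeq.

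Groups came from the labels. The number after the condition in a title was taken as the library number, and the labels do not say what it marks. The numbers paired libraries, with every correlation of same-numbered deviations over 0.1 in at least 3 pairs, in the SC and paxillin siRNA comparisons at DIV3 and DIV5, in the BDNF comparisons of both siRNAs at DIV3 and DIV5 and in DIV3 to DIV10 with SC siRNA and BDNF. The 8 genes and all marker lists were chosen with earlier results of these data known. All 8 genes are named in each main comparison, and of the 22 young neuron genes the 2 with the largest change among those past the threshold. Alternatives tried were the pseudocount, the filter, median ratio scaling, only the groups compared, the replicate block, a term for the series of library numbers, left-out libraries, DESeq2 1.42.0 and, added later, an astrocyte term.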

Additional observations from a re-analysis of the deposited data

Results flagged for a closer look

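Within groups of 4 to 10 libraries, 56 sets of values of the 8 genes were examined for a highest or lowest library that stood apart from the rest (Dixon's 95% critical value), and 4 met it, where chance flags about 1 in 20. All 4 were library 3 of the SC siRNA group with BDNF at DIV5. Its Tubb3 was 1677 TPM, where the next library had 892 TPM. Its Stmn1 was 3117 TPM and the next 2094 TPM. Its Gap43 was 126 TPM and its Dclk1 59.9 TPM, where the next libraries had 34.2 TPM of each. The summed level of 9 astrocyte genes in that library was 1514 TPM, against 4659 to 6869 TPM in the other 3, and its part in these values was not tested.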

How the results depend on the processing

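Counts are of the 8 genes past the threshold. From DIV3 to DIV5 with SC siRNA (2) the count was 0 in a fit of the compared groups alone and 1 with the astrocyte term, and ranged from 0 to 3 as single libraries were left out. From DIV5 to DIV10 (2) it was 1 without the filter, 1 with median ratio scaling, 1 with the series term, 0 in the compared groups alone and 5 with the replicate block (Dcx, Dclk1, Tubb3, Stmn1 and Stmn4), and ranged from 1 to 2. From DIV3 to DIV10 the astrocyte term gave 3 with SC siRNA, 5 with paxillin siRNA and 3 with SC siRNA and BDNF, where Stmn2 changed sign to 0.047, and the ranges over left-out libraries were 3 to 5, 7 to 8 and 5 to 7. For paxillin against SC siRNA the replicate block gave 2, 2 and 3 genes and the series term 3, 3 and 3 at DIV5, at DIV10 and at DIV5 with BDNF, the fit without libraries 10 and 11 gave 4 at DIV10, and left-out libraries gave 0 to 5, 0 to 2 and 0 to 3. For BDNF with paxillin siRNA at DIV3 the compared groups alone and the replicate block each gave 2. The block changed no other culture count by over 1.5 times. In hippocampus same-numbered libraries deviated together among P15 and P21 (correlations 0.77 to 0.86) but not between P10 and the other groups (-0.19 to 0.08), and with 2 numbers a group too few pairs exist to decide the pairing. From P10 to P15 (4) the fit without the 4 libraries numbered 2 gave 7, and left-out libraries 3 to 5. From P15 to P21 (0) DESeq2 gave 2 (Tubb3 and Gap43), the replicate block 1, a term for those 4 libraries 4, their omission 6, and left-out libraries 0 to 1. From P10 to P21 left-out libraries gave 5 to 6 genes and 11 to 13 transcripts. Stmn3 from P10 to P15, at 0.01, changed sign without the filter (-0.037), with the block (-0.12), with the term for those 4 libraries (-0.58) and without them (-0.58), and with 9 left-out libraries, with a range over all of them from -0.31 to 0.12. The shares changed by -12.0 (Dclk1) and -6.45 points (Stmn4) without 2 P21 libraries, where 4 against 2 cannot reach 0.05, and over left-out libraries by -13.4 to -11.7, -6.39 to -5.76 and -7.64 to -1.87 (Dcx). All remaining comparisons stayed at 0 over left-out libraries. For the 66 pairs of gene and comparison that passed the threshold in any setting, values past it kept their direction and call in 465 alternatives and lost the call in 42, while values short of it kept both in 459, passed in 72 and changed sign in 14. The other 134 pairs never passed, and 233 of their 2236 values had the other sign. The fits of BDNF with paxillin siRNA and of paxillin against SC siRNA with BDNF, both at DIV10, were not run without libraries 10 and 11, which make up 1 arm. Over all genes, calls went from 1350 (DIV3 to DIV5) and 3551 (DIV5 to DIV10) to 0 and 11 in the compared groups alone, from 880, 367 and 85 (paxillin against SC siRNA at DIV5, at DIV10 and at DIV5 with BDNF) to 3233, 2726 and 3130 with the block, and from 795 and 23 (P10 to P15, P15 to P21) to 1426 and 272 with DESeq2. Median ratio scaling turned 766 lower and 114 higher genes into 259 and 151 at DIV5, 310 and 57 into 135 and 155 at DIV10, and 68 and 17 into 1 and 3 at DIV5 with BDNF. The TPM carry no depth, and with 2 to 6 libraries a group small differences cannot be seen.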

Other observations

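Over the 48 culture libraries, the genes whose log2 TPM followed each of the 8 most closely, among 8795 genes averaging 10 TPM or more, are given as a description, since the libraries share days, numbers and composition. The 2 nearest to Tubb3 were the tubulin genes Tuba1a (Pearson correlation 0.97) and Tubb5 (0.95). Stmn1 was followed by Jpt1 (0.96) and the tubulin gene Tubb2b (0.95), Dcx by Cep170 (0.97) and Zfp518b (0.96), and Dclk1 by Ap2b1 (0.96) and Tcaf1 (0.94). Gap43 was followed by Tes (0.91) and Klf7 (0.91), Stmn2 by Gap43 (0.90) and Rac3 (0.89), and Stmn4 by Nudt2 (0.89) and Gap43 (0.88). Stmn3 had the weakest companions, Klc2 (0.81) and Tubb2a (0.81). Among the 8 genes themselves the correlation ran from 0.34 (Stmn1 and Stmn3) to 0.90 (Stmn2 and Gap43).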
